A study of Homo sapiens with 24 samples.

Results

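Gene-level RNA-seq counts were examined for 36 established transcriptional targets of p53, gene by gene in all 8 groups of the series. They were listed apart from the main apoptosis and DNA repair genes, although some, such as TNFAIP8 and ASCC3, have a part in these processes. The genes form a list of symbols, found through their Ensembl identifiers with no threshold on a measured value, and they are 36 of the 57736 genes in the count table. All groups are U87-T cells, a human glioblastoma line (U87) carrying a TERT transgene. In the DAXX series, WT cells, which received the empty Cas9 lentivirus vector, were set beside DAXX_KO cells, and in the ATRX series another set of WT libraries was set beside ATRX_KO cells. Each genotype was sequenced without treatment (control) and after etoposide, a topoisomerase II poison that causes DNA double-strand breaks, with 3 libraries per group and 24 libraries in all. Each knockout is 1 single-cell CRISPR clone selected as positive for alternative lengthening of telomeres (ALT), the recombination-based way of maintaining telomeres, so the effect of a knockout and that of its clone cannot be told apart. The dose and duration of etoposide for these libraries are not given in the sources used here, and the labels do not say how the 3 libraries of a group were replicated. The study describes its experiments in general as biologically replicated, and p-values measure the spread between these libraries.

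p53 is kept scarce in unstressed cells by the ubiquitin ligase MDM2, is stabilised after DNA damage, and binds DNA as a tetramer at response elements made of a pair of 10-base half-sites. Besides the genes for cell death and repair it activates genes for cell cycle arrest and stress kinases (BTG2, PLK2, PLK3, CCNG1, SERTAD1), RNA regulation and nucleases (ZMAT3, AEN, RPS27L, ASCC3), and metabolism and redox control (TIGAR, SESN1, SESN2, FDXR, TP53I3, RRM2B, CMBL, CES2, ABHD4, ACER2, FUCA1). Others act at mitochondria or in autophagy (TP53INP1, SPATA18, DRAM1, TRIAP1), as ligands, receptors and surface proteins (GDF15, KITLG, PGF, EDA2R, NINJ1), in signalling and survival (PHLDA3, TRAF4, TNFAIP8, CYFIP2, SUSD6), or in transcription and ubiquitination (PRDM1, FBXO22). DAXX and ATRX together deposit a variant of histone H3 at repeats such as telomeres, and loss of either is frequent in ALT tumours.

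p53 acts through binding sites in DNA, and promoter sequences are shown first. The study's p53 ChIP-seq with etoposide found the largest share of peaks far from start sites or between genes. The windows searched here therefore cover only part of where p53 binds. Exact matches to the p53 half-site consensus were looked up, as a description, in the 300 bases from 250 before to 50 after each RefSeq start site (GRCh38.p14). The consensus is its own reverse complement, so 1 strand covers both. Of the 30 members with an entry, 6 (20%) held at least 1 half-site, beside 2202 of 27305 genes (8.06%). These 6 are shown with 10 bases on either side on the strand of the gene, and capitals mark the half-site. It lies at −132 to −123 of the start site in PLK2 (chr5:58460199-58460228, minus strand), −49 to −40 in SESN1 (chr6:109009018-109009047, minus) and −6 to 4 in ABHD4 (chr14:22598284-22598313, plus). It lies at −59 to −50 in RPS27L (chr15:63157517-63157546, minus), −34 to −25 in AEN (chr15:88621296-88621325, plus) and −11 to −2 in FDXR (chr17:74872986-74873015, minus).
PLK2: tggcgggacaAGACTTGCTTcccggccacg
SESN1: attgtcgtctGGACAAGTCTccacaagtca
ABHD4: ggacctggcaAGGCTTGTTTactatggccg
RPS27L: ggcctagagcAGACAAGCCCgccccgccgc
AEN: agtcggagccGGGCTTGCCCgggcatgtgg
FDXR: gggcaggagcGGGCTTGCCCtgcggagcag

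A pair of half-sites at most 13 bases apart, the form in which p53 tetramers bind, was found in 0 of the 30 promoters and in 10 of all genes (0.0366%). Within 5000 bases of the start site on GRCh37, the build of the counts, 3 of the same 30 members (10%) held such a pair, beside 209 of 15340 genes (1.36%). Capitals again mark the half-sites. In ZMAT3 the pair lies in an intron, at 2008 to 2027 from the start (chr3:178787966-178788005, minus strand). The pair in PLK2 lies outside the gene at −2154 to −2135 (chr5:57758091-57758130, minus), and that of ACER2, whose half-sites are 9 bases apart, lies in an intron at 669 to 697 (chr9:19409666-19409714, plus).
ZMAT3: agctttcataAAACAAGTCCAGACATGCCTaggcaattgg
PLK2: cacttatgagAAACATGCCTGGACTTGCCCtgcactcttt
ACER2: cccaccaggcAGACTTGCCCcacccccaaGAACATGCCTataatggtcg

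The libraries were made from the 3′ ends of mRNAs and held 6928950 to 13298557 counts each, so that 3 counts, the floor used for a gene at 0, are worth 0.217 to 0.405 CPM, the counts scaled to a common library size. In the labels, DAXX_KO libraries carry a genotype tag that names ATRX and titles that name DAXX, and the titles were followed. DAXX mRNA was at 4.62 to 6.62 CPM in DAXX_KO control libraries against 32.9 to 35.3 in their WT. ATRX mRNA was at 76.1 to 87.5 against 187 to 196 in ATRX_KO and its WT, and it was not low in DAXX_KO (364 to 414 against 219 to 245). Summed over each list, glioma and mesenchymal markers stood at 5995 to 13191 CPM per library, leukocyte markers at 0.261 to 2.59 and endothelial markers at 0 to 1.30, and astrocyte markers were low (2.87 to 17.5, nearly all of it SLC1A3), with S100B at 0 in every library. The glioma and mesenchymal markers were uneven: VIM stood at 1193 to 5981 CPM and S100A6 at 3153 to 5888, while CHI3L1 was low (0.240 to 7.87). Neuronal markers stood at 14.3 to 58.2 CPM, mostly SYT1 and SNAP25, and epithelial markers at 4.02 to 30.5, mostly KRT8. Both sums moved with genotype. In control libraries the neuronal sum was 51.7 to 58.2 in DAXX_KO against 34.7 to 38.2 in WT, and 21.5 to 24.01 in ATRX_KO against 37.5 to 39.6. The epithelial sum was 4.21 to 7.12 in DAXX_KO against 22.8 to 27.5, and 14.3 to 19.7 in ATRX_KO against 23.6 to 30.5. The part of these genes in the results below was not tested. Whether the counting used strand is not stated, and exons of several members overlap those of another gene in the annotation, by most bases in FBXO22 (1918, NRG4, opposite strand) and PHLDA3 (598, a lncRNA on the same strand). Reads of such pairs may be shared.

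In WT cells etoposide raised nearly every member. A gene was called at an adjusted p under 0.05 in edgeR's quasi-likelihood test, with Benjamini-Hochberg adjustment over all genes that passed the filter on low counts, which kept 34 members of 15247 genes in the DAXX series and 35 of 16371 in the ATRX series. In WT of the DAXX series 32 of 34 members rose and 1 fell, where 29.6% of all genes rose and 30.6% fell, and in WT of the ATRX series 34 of 35 rose and 1 fell (31.7% and 29.8% of all genes). The median log2 change was 2.21 and 2.48, against 0.02 and 0.07 over all genes. In both series the WT libraries with and without etoposide did not overlap in any member tested, and neither did they in 66.8% and 68.7% of all genes, in either direction. BTG2 and ACER2 had so few counts in control libraries that they could pass the filter only through the libraries with etoposide. Without them 31 of 33 members rose in WT of the DAXX series and 32 of 33 in the other WT, with medians of 2.18 and 2.45, and the interactions described further on had medians of −0.72 and −0.94.

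GDF15 had the largest WT induction of the members in both series (403-fold and 337-fold). BTG2 gave 6.38 and 6.87 on the log2 scale, as a description only, since it entered the test through its libraries with etoposide. TP53INP1, FDXR and TP53I3 came next among the other members, with log2 changes of 4.998, 5.04 and 4.63 in the DAXX series and 5.35, 4.61 and 4.47 in the ATRX series. TNFAIP8 was the exception in both series and fell (log2 changes of −1.13 and −0.98). SPATA18 had 0 to 3 counts in every library, and no fold is given. ACER2, a Golgi ceramidase, had 0 counts in the 3 WT control libraries of the DAXX series and 27 with etoposide, at least 3.38-fold higher against a floor of 3 counts per library. In WT of the ATRX series it had 1 count and 46 counts, a ratio of CPM of 53.7 (95% counting interval 9.16 to 2165). The knockouts gave 8 and 25 counts in DAXX_KO (ratio 2.79, 1.22 to 7.15) and 4 and 30 in ATRX_KO (7.05, 2.48 to 27.5). Intervals cover counting error only. Without ACER2 the medians over the other 34 members of the ATRX series were 2.46 for the WT induction, 1.44 for that in ATRX_KO and −0.96 for the difference between both, the interaction given further on.

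**Figure D1:**
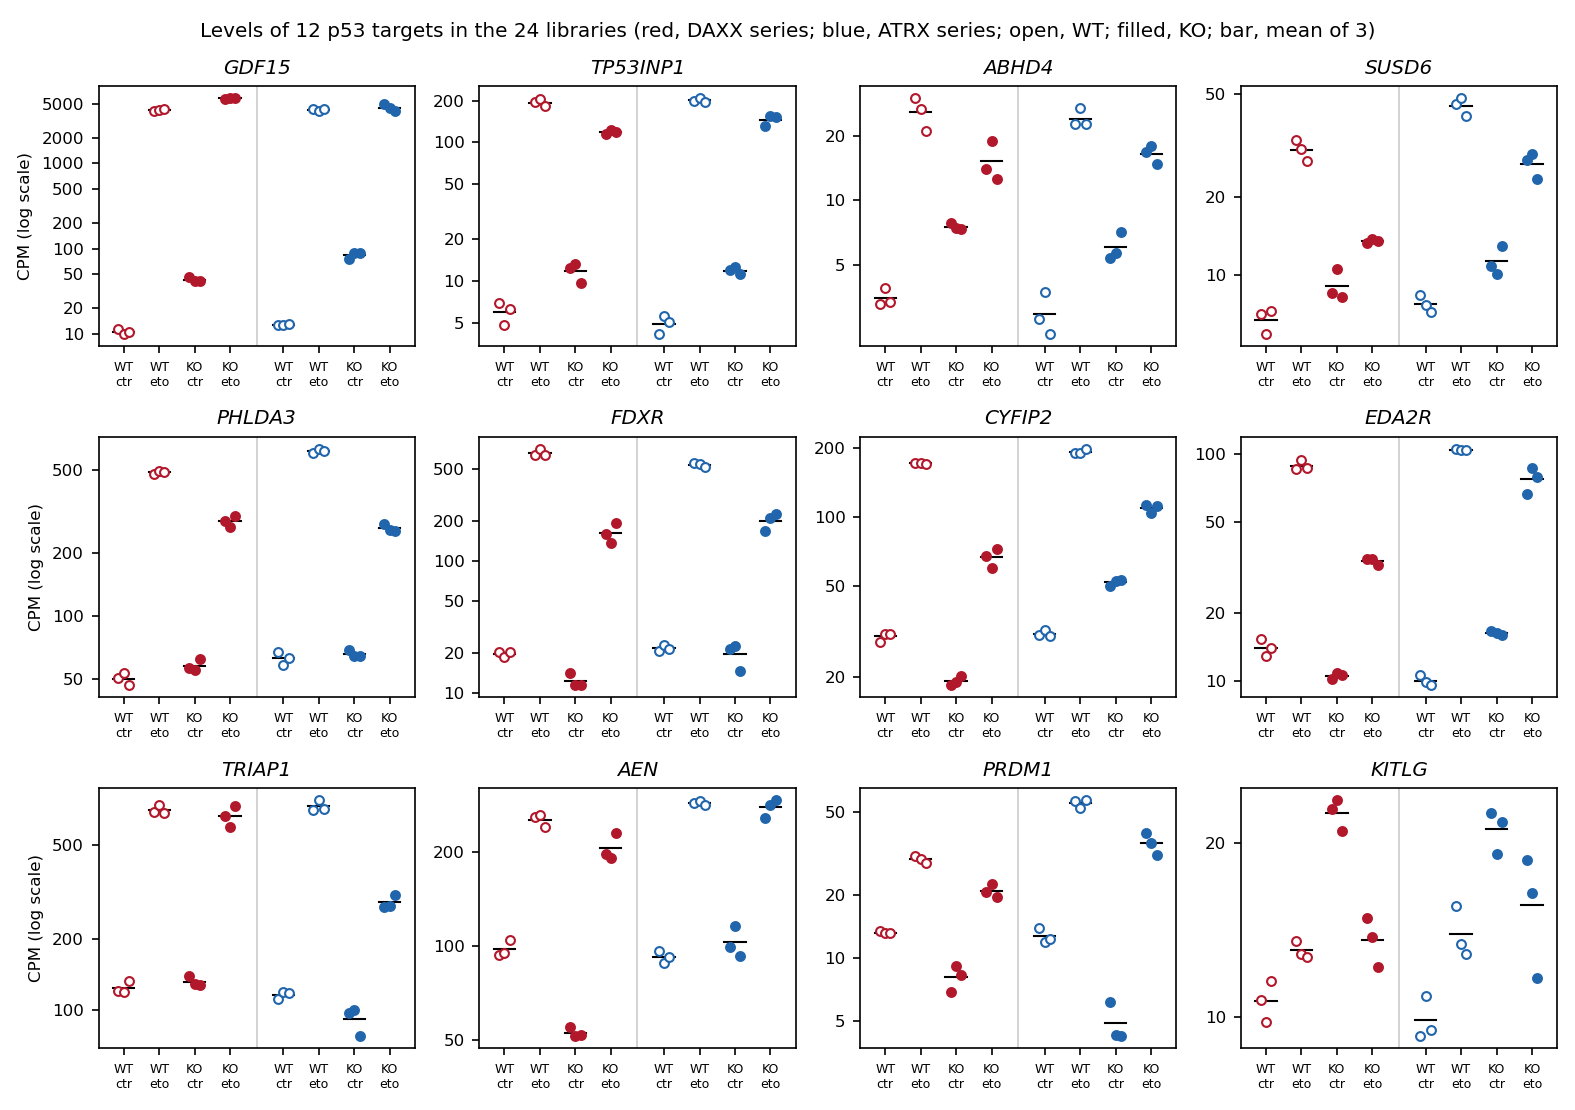
Levels of 12 p53 targets in CPM (y axis, log scale) in each of the 24 libraries, by group (x axis), with control and etoposide libraries of WT and knockout for the DAXX and ATRX series. Points are single libraries; GDF15 with etoposide lies between 4160.2 and 5905 CPM in all 4 groups, whereas FDXR is lower in both knockouts than in their WT.

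Without treatment, members moved in both directions in the knockouts. In DAXX_KO control cells 14 of 34 members were higher than in WT and 10 lower (26.7% and 26.6% of all genes). The median log2 difference was 0.10 (0.02 over all genes). In ATRX_KO control cells 15 of 35 were higher and 3 lower (20.8% and 21.0%), with a median of 0.27 (0.02 over all genes). With library totals alone, which adds a shift of 0.18 to the median of all genes, the split in DAXX_KO was 18 higher and 8 lower, beside 5537 higher and 2826 lower of all genes, and the median of the members was 0.080 above that of all genes. Of the 34 members tested in both series, 8 were higher in both knockouts, 2 lower in both (PLK2 and PRDM1), 3 were called in opposite directions (CYFIP2, EDA2R and FBXO22) and 5 in neither. Over the 15039 genes tested in both, these shares were 10.7%, 12.7%, 5.73% and 32.5%, beside 23.5%, 5.88%, 8.82% and 14.7% of the members. Untreated ABHD4, FUCA1, GDF15 and KITLG exceeded WT by 2-fold or more in each knockout.

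Etoposide still raised most members in the knockouts, by less than in WT. In DAXX_KO 31 of 34 rose and 2 fell (26.8% and 27.8% of all genes), with a median log2 change of 1.49 (−0.0037 over all genes), and in ATRX_KO 31 of 35 rose and 2 fell (24.3% and 25.2%), with a median of 1.44 (0.03). Without BTG2 and ACER2, 30 of 33 rose in DAXX_KO and 29 of 33 in ATRX_KO, with medians of 1.47 and 1.44. Over the members that rose in WT, the median fold of 4.72 in WT stood against 2.86 in DAXX_KO, and that of 5.65 in the other WT against 2.77 in ATRX_KO. These folds include BTG2, and in the ATRX series also ACER2. With etoposide, 23 members were lower in DAXX_KO than in WT and 4 higher (25.2% and 27.9% of all genes), and 24 were lower in ATRX_KO and 3 higher (22.9% and 23.0%). FUCA1 was higher under etoposide in both knockouts, RRM2B, GDF15 and NINJ1 in DAXX_KO, and TNFAIP8 and DRAM1 in ATRX_KO. In bulk libraries, fewer cells carrying an mRNA and less of it per cell cannot be told apart.

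**Figure D2:**
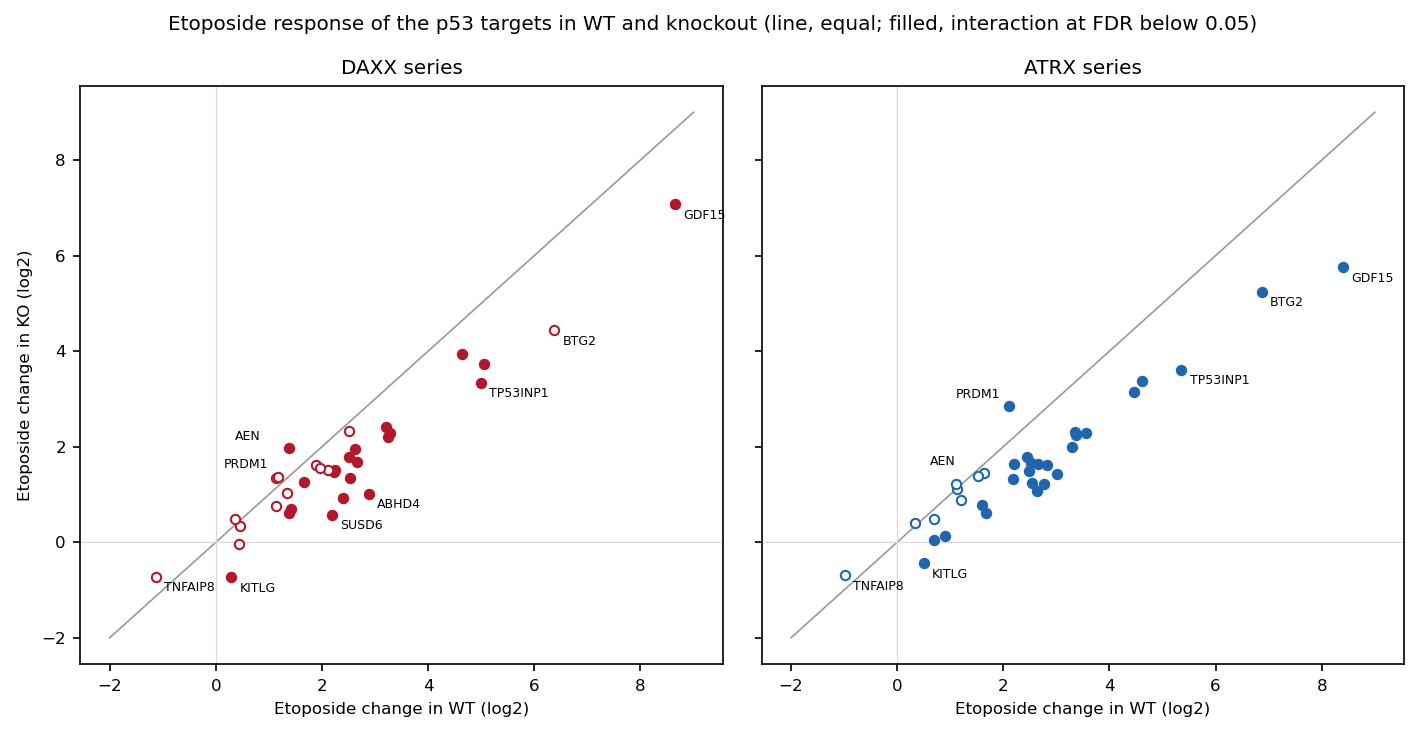
Log2 change with etoposide in WT (x axis) against that in the knockout (y axis) for each p53 target tested other than ACER2, whose fitted values rest on 0 or 1 counts, with DAXX and ATRX series in separate panels. Each point is 1 gene and the line marks equal change; of the points for members that rose in WT, 28 of 32 in the DAXX series and 30 of 33 in the ATRX series lie below it.

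Loss of induction was tested as an interaction: the etoposide response of WT, as a log2 change, was subtracted from that of the knockout. In DAXX_KO 20 of 34 members had an interaction below 0 and 1 above (5.79% and 8.38% of all genes), with a median of −0.72 (0.02 over all genes). In ATRX_KO 25 of 35 were below 0 and 1 above (7.64% and 8.36%), with a median of −0.98 (−0.0095). Without BTG2 and ACER2, which could pass the filter only through libraries with etoposide, 20 of 33 members were below 0 in DAXX_KO and 24 of 33 in ATRX_KO. Among all genes that rose in WT, 15.2% of 4512 lost induction in DAXX_KO and 21.2% of 5191 in ATRX_KO, beside 59.4% of the 32 and 73.5% of the 34 members. Among genes that rose over 2-fold, these shares were 22.7% and 26.7% for all genes and 65.5% and 75.9% for members. The member shares include BTG2, and in the ATRX series also ACER2. The median log2 induction in WT was 0.85 (DAXX series) and 0.96 (ATRX series) for all genes that rose, and 2.24 and 2.50 for members. For those that rose over 2-fold it was 1.59 and 1.77 for all genes, and 2.39 and 2.64 for members. The genes beside the members were thus not matched to them in the size of the WT induction. The share of the log2 induction kept in DAXX_KO and ATRX_KO had medians of 71.6% and 66.1% for members and 73.5% and 60.0% for all genes that rose in WT. For genes that rose over 2-fold in WT, the median interaction was −0.60 in DAXX_KO and −0.69 in ATRX_KO. For members that rose over 2-fold it was −0.74 and −1.06. The median share kept by these members was 71.4% and 66.8%, above the 65.9% and 61.5% of all genes that rose over 2-fold.

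An interaction below 0 was called in both knockouts for 17 members, in DAXX_KO alone for ZMAT3, CCNG1 and NINJ1, in ATRX_KO alone for 8, and in neither for 6 of the 34 tested in both. KITLG is among the 17 although its rise in WT of the DAXX series was not called. Of the 32 members called as rising in both WT sets, 16 (50%) had an interaction below 0 in both knockouts, beside 8.95% of 3676 genes. These genes were not matched to the members in the size of the WT induction. The 32 include BTG2, which entered the test through its libraries with etoposide. A call in 1 knockout alone is not a tested difference, and the test between knockouts is given further on. Of the 20 members with an interaction below 0 in DAXX_KO, 12 were higher than WT without treatment and 15 lower with etoposide, 7 of them both, and 19 still rose with etoposide. Of the 25 in ATRX_KO, 12 were higher without treatment and 22 lower with etoposide, 9 of them both, and 22 still rose. Of the 19 members that rose in WT and lost induction in DAXX_KO, 57.9% were higher without treatment and 78.9% lower with etoposide, beside 64.6% and 50.3% of the 684 such genes in all. In ATRX_KO these shares were 48% and 88% of the 25 members, beside 55.6% and 57.3% of 1101 genes.

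**Figure D3:**
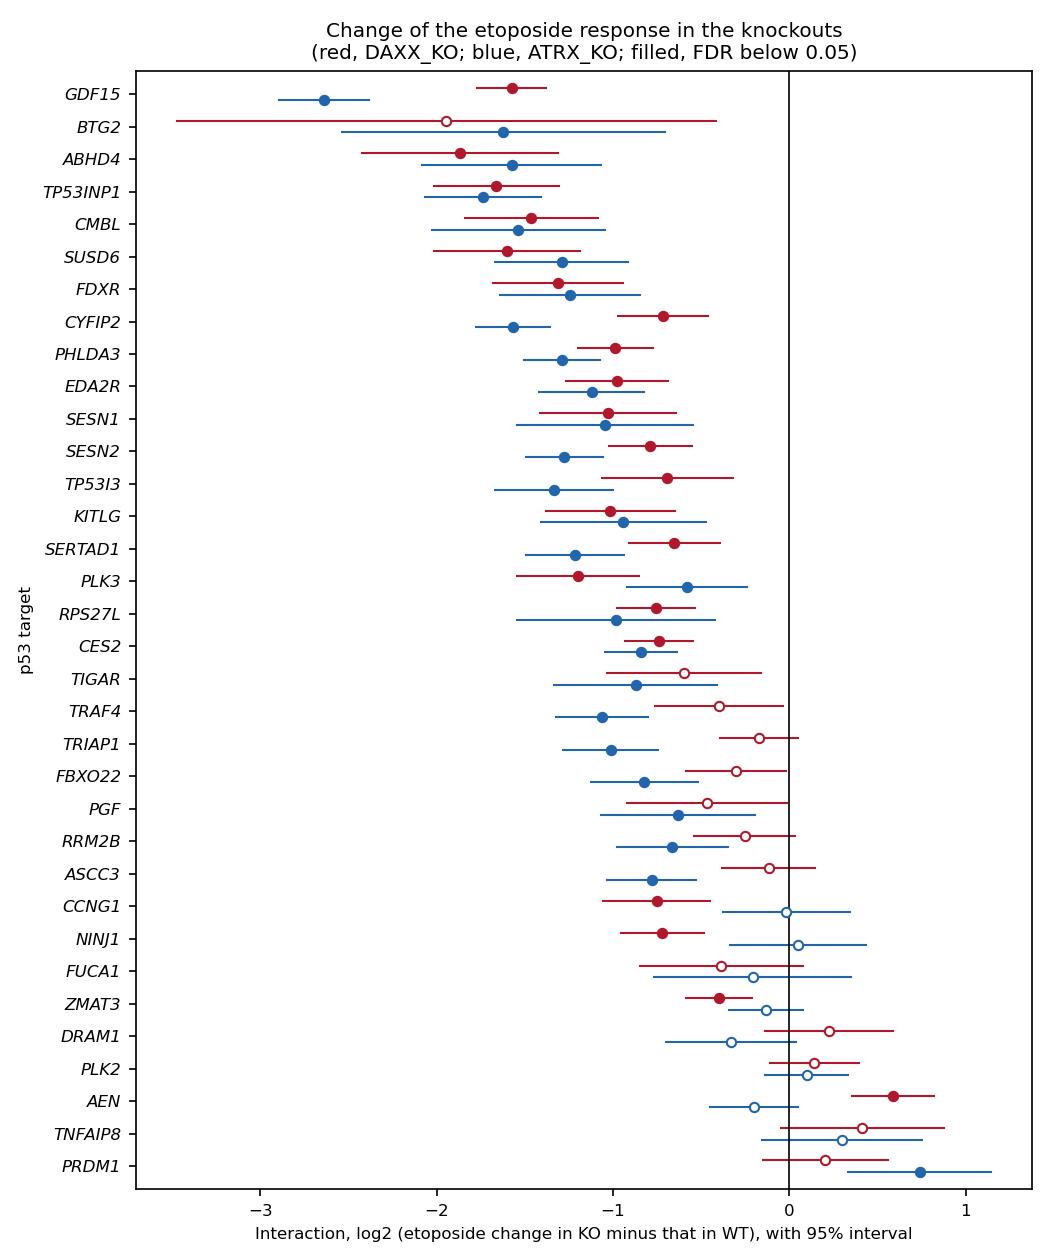
Interaction for each p53 target (the log2 response of the knockout less that of WT, x axis, with bars for the 95% interval of the fit), for DAXX_KO and ATRX_KO. Genes are ordered on the y axis by the mean of their interactions. ACER2 is left out; most intervals lie below 0, with AEN in DAXX_KO (0.59) and PRDM1 in ATRX_KO (0.74) above it.

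Among the 5 genes for arrest and cell cycle kinases, the 4 other than BTG2 rose in WT of both series. BTG2 was higher with etoposide too, as a description only, since it entered the test through those libraries. Under etoposide all 5 were lower than WT in DAXX_KO, and the 4 other than CCNG1 were lower in ATRX_KO (25.2% and 22.9% of all genes). Induction was lost for PLK3, CCNG1 and SERTAD1 in DAXX_KO and for PLK3 and SERTAD1 in ATRX_KO, where BTG2 also had an interaction below 0. BTG2 (ENSG00000159388, chr1:203274619-203278730, plus strand), an antiproliferative partner of the mRNA deadenylase complex, was at 0.793, 0.576 and 0.240 CPM in WT control, 54.0, 44.9 and 42.8 in WT with etoposide, 0.625, 0.792 and 0.602 in DAXX_KO control and 12.7, 21.3 and 10.1 in DAXX_KO with etoposide. BTG2 in the ATRX series was at 0.778, 0.594 and 0.339 CPM in WT control, 67.9, 69.9 and 67.3 in WT with etoposide, 0.261, 1.004 and 0.795 in ATRX_KO control and 28.8, 26.6 and 24.7 in ATRX_KO with etoposide. Control libraries held 2 to 12 counts of it, so the size of its induction is imprecise, and its libraries with etoposide did not overlap between WT and knockout in either series. Under etoposide it was lower by 1.67 (SE 0.19, adjusted p = 3.85e-07) for DAXX_KO and 1.36 (SE 0.12, adjusted p = 1.59e-07) for ATRX_KO on the log2 scale. Its interaction was −1.94 (SE 0.73, adjusted p = 0.0849) for DAXX_KO and −1.62 (SE 0.43, adjusted p = 0.018) for ATRX_KO. Both verdicts varied: it passed the threshold in DAXX_KO with DESeq2 (0.0107), without the filter and without DAXX_KO etoposide replicate 2 (0.00613). The call in ATRX_KO was lost without WT control replicate 3 or without ATRX_KO control replicate 2 or 3 (adjusted p 0.055 to 0.116).

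PLK2 and PLK3, polo-like kinases of the stress response, gave different calls. PLK2 was lower in both knockouts with and without etoposide and had no interaction call. Its mean went from 108 to 138 CPM in WT and from 62.8 to 88.5 in DAXX_KO, and from 91.5 to 198 in WT and 60.5 to 140.1 in ATRX_KO. Its interactions were 0.14 (95% interval −0.11 to 0.39) and 0.097 (−0.14 to 0.33). PLK3 showed no basal call and lost induction by 1.201 (SE 0.17, adjusted p = 5.95e-05) for DAXX_KO and 0.58 (SE 0.16, adjusted p = 0.0224) for ATRX_KO, the latter call being lost without WT control replicate 1 or 2, WT etoposide replicate 2 or 3, or ATRX_KO etoposide replicate 2 (adjusted p 0.057 to 0.0653). SERTAD1, a CDK4-binding protein, went from 36.7 to 225 CPM in WT and 24.4 to 95.03 in DAXX_KO, and from 37.02 to 262 and 35.4 to 108 in the ATRX series, with interactions of −0.65 (adjusted p = 0.00124) and −1.22 (adjusted p = 1.92e-05). CCNG1, the p53-induced cyclin G1, had interactions of −0.75 (adjusted p = 0.00156) for DAXX_KO and −0.017 (adjusted p = 0.964) for ATRX_KO. Its lower level under etoposide in DAXX_KO (−0.33) was no longer called without DAXX_KO etoposide replicate 3 (adjusted p = 0.0534).

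The 4 genes for RNA regulation and nucleases all rose in WT (29.6% and 31.7% of all genes in the DAXX and ATRX series), and they fell into different patterns. ZMAT3 (ENSG00000172667, chr3:178677909-178790003, minus strand), a zinc-finger RNA-binding protein, was at 121, 119 and 127 CPM in WT control, 381, 383 and 392 in WT with etoposide, 137, 126 and 125 in DAXX_KO control and 305, 296 and 325 in DAXX_KO with etoposide. ZMAT3 in the ATRX series was at 114, 126 and 131 CPM in WT control, 359.8, 364 and 346 in WT with etoposide, 140.5, 132 and 137 in ATRX_KO control and 346, 373 and 358 in ATRX_KO with etoposide. DAXX_KO with etoposide lay below all its WT libraries, while ATRX_KO overlapped its WT, and control libraries overlapped in the DAXX series. The interaction was −0.40 (SE 0.089, adjusted p = 0.00498) for DAXX_KO and −0.13 (SE 0.099, adjusted p = 0.405) for ATRX_KO. AEN (ENSG00000181026, chr15:89164568-89175512, plus strand), an exonuclease induced by p53, was at 93.7, 94.98 and 105 CPM in WT control, 259, 263 and 242 in WT with etoposide, 55.1, 51.3 and 52.0 in DAXX_KO control and 197, 192 and 231 in DAXX_KO with etoposide. AEN in the ATRX series was at 96.4, 88.4 and 92.1 CPM in WT control, 288, 292 and 285 in WT with etoposide, 99.2, 116 and 93.4 in ATRX_KO control and 258, 285 and 295 in ATRX_KO with etoposide. In DAXX_KO it was lower than WT without treatment, by 0.89 (SE 0.083, adjusted p = 2.99e-08), and less so with etoposide, by 0.30 (SE 0.074, adjusted p = 0.00212), so that its interaction was above 0 at 0.59 (SE 0.11, adjusted p = 0.00133). In ATRX_KO its libraries overlapped those of WT in both conditions, with an interaction of −0.20 (adjusted p = 0.272).

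RPS27L, a p53-induced paralog of ribosomal protein S27, went from a mean of 428 to 2009 CPM in WT and 522 to 1449 in DAXX_KO, and from 424 to 2361 and 479 to 1351 in the ATRX series. Its interactions were −0.76 (adjusted p = 6.4e-05) and −0.98 (adjusted p = 0.0192). The ATRX_KO libraries with etoposide were uneven, at 1978, 1139 and 937 CPM, and the call was lost with DESeq2 (0.0523) and without WT etoposide replicate 3 (0.0608) or ATRX_KO etoposide replicate 2 (0.0592). ASCC3 (ENSG00000112249, chr6:100956070-101329248, minus strand), a helicase that acts in alkylation repair and on stalled ribosomes, was at 29.8, 33.5 and 33.3 CPM in WT control, 45.2, 45.6 and 42.3 in WT with etoposide, 36.5, 33.8 and 32.1 in DAXX_KO control and 46.8, 40.3 and 43.3 in DAXX_KO with etoposide. ASCC3 in the ATRX series was at 30.02, 28.9 and 28.6 CPM in WT control, 53.1, 54.5 and 56.5 in WT with etoposide, 37.6, 40.4 and 35.1 in ATRX_KO control and 37.8, 43.5 and 41.9 in ATRX_KO with etoposide. WT and DAXX_KO libraries overlapped in both conditions, and the 3 ATRX_KO control libraries lay above WT while those with etoposide lay below. Its interaction was −0.12 (adjusted p = 0.605) for DAXX_KO and −0.78 (SE 0.12, adjusted p = 0.000398) for ATRX_KO, where etoposide gave no call (log2 change 0.13, adjusted p = 0.231).

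Of the 11 genes for metabolism and redox control, induction was lost for 7 of 10 tested in DAXX_KO and for 9 of 11 tested in ATRX_KO. Among all genes that rose in WT it was lost for 15.2% and 21.2%. SESN1, SESN2, FDXR, TP53I3, CMBL, CES2 and ABHD4 lost it in both. SESN1 (ENSG00000080546, chr6:109305512-109416049, minus strand), a sestrin that restrains mTORC1, was at 4.96, 3.34 and 3.84 CPM in WT control, 37.5, 38.7 and 39.6 in WT with etoposide, 8.25, 9.10 and 8.06 in DAXX_KO control and 37.9, 39.2 and 40.3 in DAXX_KO with etoposide. SESN1 in the ATRX series was at 3.58, 3.65 and 5.25 CPM in WT control, 46.6, 38.8 and 42.4 in WT with etoposide, 6.09, 4.69 and 6.36 in ATRX_KO control and 28.4, 32.7 and 24.1 in ATRX_KO with etoposide. DAXX_KO lay above WT without treatment and overlapped it with etoposide, and ATRX_KO overlapped it without treatment and lay below it with etoposide. The interaction was −1.03 (SE 0.18, adjusted p = 0.000797) for DAXX_KO and −1.04 (SE 0.24, adjusted p = 0.00681) for ATRX_KO. SESN2 (ENSG00000130766, chr1:28586029-28609002, plus strand), its paralog, was at 84.8, 92.3 and 83.1 CPM in WT control, 804, 796 and 799.9 in WT with etoposide, 92.7, 90.1 and 110.0 in DAXX_KO control and 553, 467 and 544 in DAXX_KO with etoposide. SESN2 in the ATRX series was at 88.4, 81.5 and 82.6 CPM in WT control, 958, 991 and 1023 in WT with etoposide, 133, 130.1 and 126 in ATRX_KO control and 689, 593 and 609 in ATRX_KO with etoposide. With etoposide all libraries of either knockout lay below WT, and the interaction was −0.79 (SE 0.11, adjusted p = 8.12e-05) for DAXX_KO and −1.28 (SE 0.10, adjusted p = 1.33e-06) for ATRX_KO.

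CES2 (ENSG00000172831, chr16:66968347-66978999, plus strand), a carboxylesterase, was at 46.7, 48.2 and 47.3 CPM in WT control, 217, 231 and 229 in WT with etoposide, 56.4, 58.1 and 54.9 in DAXX_KO control and 163, 155 and 164 in DAXX_KO with etoposide. CES2 in the ATRX series was at 51.7, 50.3 and 52.7 CPM in WT control, 240.5, 233 and 225 in WT with etoposide, 64.5, 68.3 and 63.3 in ATRX_KO control and 159, 163 and 171 in ATRX_KO with etoposide. In both knockouts it was higher than WT without treatment (0.25 and 0.34 on the log2 scale) and lower with etoposide (−0.49 and −0.50), with interactions of −0.74 (SE 0.092, adjusted p = 2.14e-05) for DAXX_KO and −0.84 (SE 0.096, adjusted p = 3.29e-05) for ATRX_KO. CMBL (ENSG00000164237, chr5:10275987-10308014, minus strand), a cysteine hydrolase, was at 5.45, 6.79 and 7.33 CPM in WT control, 34.3, 34.4 and 33.2 in WT with etoposide, 16.6, 12.8 and 15.9 in DAXX_KO control and 27.0, 30.9 and 28.1 in DAXX_KO with etoposide. CMBL in the ATRX series was at 5.37, 3.82 and 6.69 CPM in WT control, 38.9, 33.3 and 35.9 in WT with etoposide, 8.18, 7.36 and 6.28 in ATRX_KO control and 18.6, 15.3 and 17.3 in ATRX_KO with etoposide. In DAXX_KO it was higher than WT by 1.22 (SE 0.14, adjusted p = 6.05e-07) without treatment and gave −0.24 (adjusted p = 0.0687) with etoposide, while in ATRX_KO it gave 0.45 (adjusted p = 0.0535) without treatment and was lower by 1.08 (SE 0.14, adjusted p = 1.14e-05) with etoposide. The interactions were −1.46 (adjusted p = 1.81e-05) and −1.54 (adjusted p = 0.000348). Its level with etoposide in DAXX_KO passed the threshold without DAXX_KO etoposide replicate 2 (adjusted p = 0.0432), and its basal level in ATRX_KO did so without WT control replicate 3 (0.0129) or ATRX_KO control replicate 3 (0.0326).

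ABHD4 (ENSG00000100439, chr14:23067199-23081869, plus strand), a lysophospholipase, was at 3.27, 3.91 and 3.36 CPM in WT control, 29.99, 26.5 and 21.1 in WT with etoposide, 7.87, 7.39 and 7.34 in DAXX_KO control and 14.0, 19.0 and 12.5 in DAXX_KO with etoposide. ABHD4 in the ATRX series was at 2.80, 3.73 and 2.37 CPM in WT control, 22.7, 26.8 and 22.6 in WT with etoposide, 5.39, 5.69 and 7.15 in ATRX_KO control and 16.8, 17.99 and 14.7 in ATRX_KO with etoposide. Neither knockout overlapped WT in either condition: it was 2.14-fold and 2.05-fold higher than WT without treatment and lower with etoposide, with interactions of −1.87 (SE 0.26, adjusted p = 7.88e-05) for DAXX_KO and −1.58 (SE 0.24, adjusted p = 0.000392) for ATRX_KO. FUCA1 (ENSG00000179163, chr1:24171567-24194780, minus strand), a lysosomal fucosidase, was at 5.15, 4.72 and 3.72 CPM in WT control, 10.4, 10.8 and 8.78 in WT with etoposide, 11.5, 11.1 and 9.27 in DAXX_KO control and 18.6, 17.3 and 17.6 in DAXX_KO with etoposide. FUCA1 in the ATRX series was at 4.04, 3.99 and 3.39 CPM in WT control, 5.92, 6.31 and 6.22 in WT with etoposide, 8.79, 10.46 and 8.98 in ATRX_KO control and 9.70, 13.29 and 16.3 in ATRX_KO with etoposide. It was higher in both knockouts in both conditions, by 1.21 and 1.30 without treatment and 0.83 and 1.09 with etoposide on the log2 scale. Its interaction was −0.39 (95% interval −0.85 to 0.078, adjusted p = 0.277) in DAXX_KO and −0.21 (−0.77 to 0.35, 0.65) in ATRX_KO. The rise with etoposide in ATRX_KO (0.48, adjusted p = 0.0278) was lost without ATRX_KO control replicate 1 or 3 or ATRX_KO etoposide replicate 2 or 3 (adjusted p 0.0696 to 0.200).

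FDXR, the mitochondrial ferredoxin reductase, went from a mean of 19.95 to 659 CPM in WT and 12.3 to 164 in DAXX_KO, and from 21.9 to 537 and 19.6 to 203 in the ATRX series. It had the largest shortfall under etoposide of any member tested in DAXX_KO (log2 difference −2.01) and in ATRX_KO (−1.40), and its interactions were −1.31 (adjusted p = 4.63e-05) and −1.24 (adjusted p = 0.00037). TP53I3, a quinone oxidoreductase, went from 9.65 to 239 CPM in WT and 6.32 to 97.1 in DAXX_KO, and from 8.62 to 191 and 8.58 to 75.2 in the ATRX series. Its interactions were −0.69 (adjusted p = 0.0124) and −1.33 (adjusted p = 4.72e-05), the former lost without DAXX_KO control replicate 1 (0.0528). TIGAR, a fructose bisphosphatase, gave −0.60 (adjusted p = 0.0636) for DAXX_KO and −0.87 (adjusted p = 0.0128) for ATRX_KO, and passed the threshold in DAXX_KO without DAXX_KO etoposide replicate 2 (0.000364). RRM2B, the p53-induced subunit of ribonucleotide reductase, was higher in both knockouts without treatment (1.05 and 0.64) and lost induction in ATRX_KO (−0.66, adjusted p = 0.00637). In DAXX_KO its interaction was −0.25 (adjusted p = 0.246), which passed without DAXX_KO etoposide replicate 2 (0.0313). ACER2, tested in the ATRX series alone, had no interaction call there.

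Among the 3 tested genes for mitochondria and autophagy, TP53INP1 lost induction in both knockouts, TRIAP1 in ATRX_KO and DRAM1 in neither. TP53INP1 (ENSG00000164938), a p53 cofactor that also acts in autophagy, was at 6.94, 4.84 and 6.25 CPM in WT control, 194, 204 and 182 in WT with etoposide, 12.4, 13.2 and 9.75 in DAXX_KO control and 116, 122 and 118 in DAXX_KO with etoposide. TP53INP1 in the ATRX series was at 4.12, 5.60 and 5.08 CPM in WT control, 200.04, 209.7 and 194 in WT with etoposide, 12.004, 12.5 and 11.2 in ATRX_KO control and 130.4, 156 and 152 in ATRX_KO with etoposide. No knockout library overlapped WT in either condition: it was higher without treatment, by 0.96 and 1.27, and lower with etoposide, by 0.70 and 0.46 on the log2 scale. The interaction was −1.66 (SE 0.17, adjusted p = 2.63e-06) for DAXX_KO and −1.74 (SE 0.15, adjusted p = 3.42e-06) for ATRX_KO. TRIAP1 (ENSG00000170855, chr12:120881767-120884187, minus strand), a partner of mitochondrial lipid transfer proteins, was at 120.4, 119.6 and 133 CPM in WT control, 689, 739.9 and 685 in WT with etoposide, 139.6, 129 and 127 in DAXX_KO control and 666, 595 and 731 in DAXX_KO with etoposide. TRIAP1 in the ATRX series was at 112, 119 and 118 CPM in WT control, 708, 779 and 713 in WT with etoposide, 96.8, 100.5 and 77.2 in ATRX_KO control and 274, 277 and 308 in ATRX_KO with etoposide. DAXX_KO overlapped WT in both conditions, and ATRX_KO lay below WT in both. The interaction was −0.17 (SE 0.11, adjusted p = 0.311) for DAXX_KO and −1.01 (SE 0.13, adjusted p = 6.99e-05) for ATRX_KO. DRAM1, a lysosomal membrane protein of autophagy, gave 0.22 (adjusted p = 0.44) and −0.33 (adjusted p = 0.22). Its higher level with etoposide in ATRX_KO (0.34) was no longer called without WT etoposide replicate 2 (adjusted p = 0.0786) or ATRX_KO etoposide replicate 3 (0.0976).

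Of the 5 ligands, receptors and surface proteins, GDF15 and EDA2R lost induction in both knockouts, NINJ1 in DAXX_KO and PGF in ATRX_KO, and KITLG had an interaction below 0 in both. GDF15 (ENSG00000130513, chr19:18485541-18499986, plus strand), a secreted stress hormone of the TGF-β family, was at 11.5, 9.79 and 10.3 CPM in WT control, 4172, 4298 and 4341 in WT with etoposide, 46.0, 41.8 and 41.5 in DAXX_KO control and 5760.1, 5905 and 5853 in DAXX_KO with etoposide. GDF15 in the ATRX series was at 12.5, 12.7 and 12.9 CPM in WT control, 4368, 4160.2 and 4313 in WT with etoposide, 74.98, 88.7 and 88.0 in ATRX_KO control and 4968, 4466 and 4184 in ATRX_KO with etoposide. All knockout control libraries lay above WT, and with etoposide DAXX_KO lay above WT while ATRX_KO overlapped it. Without treatment it was 4.07-fold higher in DAXX_KO and 6.60-fold higher in ATRX_KO, and the fold with etoposide was 403 in WT against 135 for DAXX_KO and 337 in WT against 54.1 for ATRX_KO. Its interaction was −1.57 (SE 0.094, adjusted p = 2.52e-09) for DAXX_KO and −2.64 (SE 0.12, adjusted p = 1.09e-09) for ATRX_KO, although its level with etoposide was not below WT in either (0.45 and 0.085). EDA2R (ENSG00000131080, chrX:65815479-65859140, minus strand), the receptor for ectodysplasin A2, was at 15.3, 12.9 and 13.9 CPM in WT control, 85.5, 93.4 and 86.8 in WT with etoposide, 10.2, 10.8 and 10.6 in DAXX_KO control and 34.4, 34.4 and 32.6 in DAXX_KO with etoposide. EDA2R in the ATRX series was at 10.7, 9.93 and 9.57 CPM in WT control, 105, 104 and 104 in WT with etoposide, 16.6, 16.2 and 15.9 in ATRX_KO control and 66.7, 86.2 and 79.1 in ATRX_KO with etoposide. Without treatment it lay below WT in DAXX_KO (−0.41, adjusted p = 0.00368, lost with library totals alone at 0.0956) and above it in ATRX_KO (0.69, adjusted p = 8.39e-05), and with etoposide below WT in both. The interactions were −0.98 (adjusted p = 7.68e-05) and −1.12 (adjusted p = 6.48e-05).

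KITLG (ENSG00000049130, chr12:88886570-88974628, minus strand), stem cell factor, was at 10.7, 9.79 and 11.5 CPM in WT control, 13.6, 12.9 and 12.7 in WT with etoposide, 22.9, 23.8 and 20.9 in DAXX_KO control and 14.9, 13.8 and 12.2 in DAXX_KO with etoposide. KITLG in the ATRX series was at 9.25, 10.9 and 9.49 CPM in WT control, 15.5, 13.4 and 12.8 in WT with etoposide, 22.5, 19.2 and 21.8 in ATRX_KO control and 18.7, 16.4 and 11.7 in ATRX_KO with etoposide. Its knockout control libraries lay above WT, 2.11-fold and 2.14-fold, and with etoposide the knockouts overlapped WT. In WT the log2 change with etoposide was 0.29 (adjusted p = 0.0608) in the DAXX series and 0.50 (adjusted p = 0.0136) in the ATRX series, and in the knockouts it fell by 0.73 (adjusted p = 3.34e-05) for DAXX_KO and 0.44 (adjusted p = 0.0212) for ATRX_KO. The rise in WT of the ATRX series was lost without WT etoposide replicate 1 (0.0811), and the fall in ATRX_KO without ATRX_KO control replicate 1 (0.0614) or ATRX_KO etoposide replicate 3 (0.108). The interactions were −1.01 (adjusted p = 0.000604) and −0.94 (adjusted p = 0.00847).

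PGF (ENSG00000119630, chr14:75408537-75422329, minus strand), placental growth factor, was at 14.2, 13.5 and 16.3 CPM in WT control, 20.2, 18.4 and 20.7 in WT with etoposide, 15.1, 16.4 and 14.8 in DAXX_KO control and 18.03, 10.9 and 16.5 in DAXX_KO with etoposide. PGF in the ATRX series was at 15.7, 13.8 and 20.1 CPM in WT control, 25.2, 26.4 and 28.4 in WT with etoposide, 20.3, 13.6 and 16.8 in ATRX_KO control and 17.7, 17.9 and 17.0 in ATRX_KO with etoposide. Control libraries overlapped between WT and knockout in both series, and etoposide gave no call in the knockouts. The WT rise was 0.43 (adjusted p = 0.0188) and 0.69 (adjusted p = 0.000585), the former lost without WT control replicate 1 or 2 or WT etoposide replicate 1 or 3 (adjusted p 0.0544 to 0.0683). The lower level with etoposide in DAXX_KO (−0.39, adjusted p = 0.0348) was lost without WT etoposide replicate 1 or 3 or DAXX_KO etoposide replicate 2, with −0.19 (0.219) in the last case. The interaction was −0.47 (adjusted p = 0.168) for DAXX_KO and −0.63 (adjusted p = 0.0478) for ATRX_KO, and the latter call was lost when any 1 of 10 of the 12 libraries was left out (all but WT control replicate 3 and ATRX_KO control replicate 2; adjusted p 0.0583 to 0.132). NINJ1, a mediator of plasma membrane rupture, was at 29.9 CPM in WT control of the DAXX series and 49.1 in WT control of the ATRX series. It went to 79.6 and 62.4 with etoposide, from 68.2 to 110.0 in DAXX_KO and from 42.0 to 55.3 in ATRX_KO, with interactions of −0.72 (adjusted p = 0.000212) and 0.049 (adjusted p = 0.893). In the ATRX series its rise in WT (0.34) was lost without WT control replicate 2 or WT etoposide replicate 1 or 3 (0.0926 to 0.133), and that in ATRX_KO (0.39) without ATRX_KO control replicate 1 or 2 or ATRX_KO etoposide replicate 1 (0.0748 to 0.110).

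In the signalling and survival group, PHLDA3, CYFIP2 and SUSD6 lost induction in both knockouts and TRAF4 in ATRX_KO. PHLDA3 (ENSG00000174307, chr1:201433406-201438365, minus strand), which blocks the membrane recruitment of AKT, was at 50.6, 53.3 and 46.6 CPM in WT control, 480.0, 494 and 489.8 in WT with etoposide, 56.4, 55.0 and 62.2 in DAXX_KO control and 284, 267 and 301 in DAXX_KO with etoposide. PHLDA3 in the ATRX series was at 67.5, 58.3 and 63.2 CPM in WT control, 599, 629.8 and 615 in WT with etoposide, 69.2, 64.3 and 64.4 in ATRX_KO control and 275, 259 and 256 in ATRX_KO with etoposide. With etoposide all knockout libraries lay below WT. The interaction was −0.99 (SE 0.10, adjusted p = 2.82e-06) for DAXX_KO and −1.29 (SE 0.10, adjusted p = 1.14e-06) for ATRX_KO. Its small basal difference in DAXX_KO (0.21, adjusted p = 0.0297) was lost without WT control replicate 1 or 3 or DAXX_KO control replicate 3 (0.0575 to 0.134). SUSD6 (ENSG00000100647, chr14:70078313-70181861, plus strand), a transmembrane sushi domain protein, was at 7.04, 5.87 and 7.21 CPM in WT control, 33.1, 30.7 and 27.6 in WT with etoposide, 8.50, 10.6 and 8.18 in DAXX_KO control and 13.28, 13.8 and 13.5 in DAXX_KO with etoposide. SUSD6 in the ATRX series was at 8.32, 7.64 and 7.20 CPM in WT control, 45.7, 48.3 and 41.1 in WT with etoposide, 10.8, 10.04 and 12.95 in ATRX_KO control and 27.9, 29.3 and 23.4 in ATRX_KO with etoposide. In both knockouts it was higher than WT without treatment (0.43 and 0.54) and lower with etoposide (−1.17 and −0.75). The basal call in DAXX_KO was lost without WT control replicate 2 (0.0983) or DAXX_KO control replicate 2 (0.128). The interactions were −1.60 (adjusted p = 1.81e-05) and −1.29 (adjusted p = 0.00017).

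CYFIP2 (ENSG00000055163, chr5:156693089-156822603, plus strand), a subunit of the WAVE actin regulatory complex, was at 28.5, 30.9 and 30.9 CPM in WT control, 172, 172 and 171 in WT with etoposide, 18.4, 19.0 and 20.2 in DAXX_KO control and 67.6, 59.9 and 72.6 in DAXX_KO with etoposide. CYFIP2 in the ATRX series was at 30.6, 32.0 and 30.3 CPM in WT control, 190.2, 189.9 and 199 in WT with etoposide, 50.2, 52.6 and 53.1 in ATRX_KO control and 112, 104 and 112 in ATRX_KO with etoposide. DAXX_KO lay below WT in both conditions, and ATRX_KO lay above WT without treatment and below it with etoposide. The basal difference was −0.65 (SE 0.095, adjusted p = 1.06e-05) for DAXX_KO and 0.75 (SE 0.073, adjusted p = 3.48e-07) for ATRX_KO, and the interactions were −0.72 (adjusted p = 0.000488) and −1.56 (adjusted p = 9.07e-08). TNFAIP8 (ENSG00000145779, chr5:118604387-118735383, plus strand), an anti-apoptotic protein, was at 15.4, 14.9 and 16.2 CPM in WT control, 6.78, 7.14 and 7.29 in WT with etoposide, 16.0, 15.04 and 12.3 in DAXX_KO control and 9.62, 9.74 and 6.94 in DAXX_KO with etoposide. TNFAIP8 in the ATRX series was at 14.5, 18.5 and 18.1 CPM in WT control, 9.71, 8.60 and 7.43 in WT with etoposide, 19.7, 24.01 and 23.3 in ATRX_KO control and 12.3, 12.6 and 16.7 in ATRX_KO with etoposide. It fell with etoposide in WT and knockout of both series, by 1.13 in WT and 0.72 in DAXX_KO and by 0.98 in WT and 0.69 for ATRX_KO on the log2 scale. Its interactions were 0.41 (adjusted p = 0.24) and 0.30 (adjusted p = 0.386). Its higher basal level in ATRX_KO (0.39, adjusted p = 0.0375) was lost without WT control replicate 1 or 3 or ATRX_KO control replicate 2 or 3 (0.0530 to 0.159), while its level with etoposide in DAXX_KO passed without DAXX_KO etoposide replicate 3 (0.0275).

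TRAF4, an adaptor of the TRAF family, went from 15.5 to 60.0 CPM in WT and 11.6 to 34.3 in DAXX_KO, and from 18.3 to 58.6 and 19.1 to 29.3 in the ATRX series. The interaction was −0.40 (adjusted p = 0.138) in DAXX_KO, passing without DAXX_KO etoposide replicate 1 (0.0449), and −1.06 (adjusted p = 4.03e-05) for ATRX_KO. Its lower basal level in DAXX_KO (−0.41) was lost without WT control replicate 3 (0.0543) or DAXX_KO control replicate 1 (0.0751).

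PRDM1 and FBXO22 make up the transcription and ubiquitination group. PRDM1 (ENSG00000057657, chr6:106441338-106557814, plus strand), the transcriptional repressor BLIMP-1, was at 13.4, 13.1 and 13.1 CPM in WT control, 30.9, 29.9 and 28.4 in WT with etoposide, 6.87, 9.10 and 8.30 in DAXX_KO control and 20.7, 22.5 and 19.6 in DAXX_KO with etoposide. PRDM1 in the ATRX series was at 13.8, 11.9 and 12.4 CPM in WT control, 56.1, 52.3 and 57.0 in WT with etoposide, 6.18, 4.27 and 4.21 in ATRX_KO control and 39.5, 35.4 and 31.0 in ATRX_KO with etoposide. Both knockouts lay below WT in both conditions. The basal difference was −0.71 (SE 0.13, adjusted p = 0.000141) for DAXX_KO and −1.38 (SE 0.15, adjusted p = 1.49e-06) for ATRX_KO, and the interaction was 0.20 (adjusted p = 0.483) and, above 0, 0.74 (adjusted p = 0.0154). FBXO22 (ENSG00000167196, chr15:76196217-76234852, plus strand), an F-box substrate receptor of an SCF ubiquitin ligase, was at 34.4, 36.8 and 40.0 CPM in WT control, 95.2, 101 and 84.1 in WT with etoposide, 22.4, 24.4 and 22.0 in DAXX_KO control and 47.6, 50.1 and 42.9 in DAXX_KO with etoposide. FBXO22 in the ATRX series was at 27.1, 29.5 and 27.3 CPM in WT control, 84.3, 88.1 and 80.7 in WT with etoposide, 31.3, 39.3 and 30.6 in ATRX_KO control and 51.7, 57.9 and 63.0 in ATRX_KO with etoposide. In DAXX_KO it was lower than WT in both conditions (−0.69 and −0.99) with an interaction of −0.30 (adjusted p = 0.149). In ATRX_KO it lost induction, with an interaction of −0.82 (SE 0.14, adjusted p = 0.00115), and its higher basal level (0.27, adjusted p = 0.0483) was lost without any 1 of 8 libraries (each of the 6 WT libraries and replicate 2 of ATRX_KO control and etoposide), giving 0.14 (0.298) without ATRX_KO control replicate 2.

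**Figure D4:**
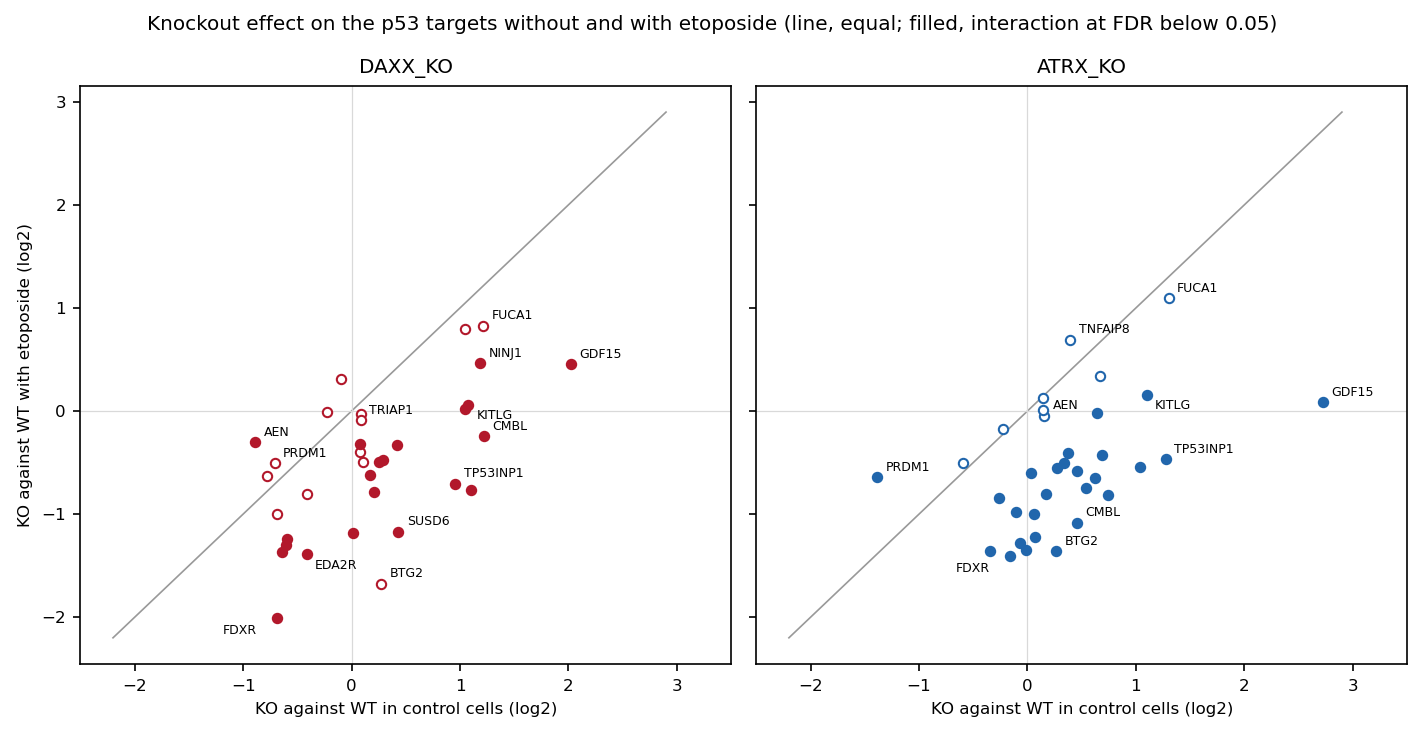
Knockout against WT without treatment (x axis, log2 difference) and with etoposide (y axis, log2 difference) for each p53 target other than ACER2, with DAXX_KO and ATRX_KO in separate panels. Each point is 1 gene; points to the right of 0 and below 0, such as ABHD4, TP53INP1 and SUSD6, are higher in the knockout without treatment and lower with etoposide, and GDF15 and FUCA1 lie above 0 on both axes.

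The knockouts were compared with each other as the interaction in ATRX_KO minus that in DAXX_KO, in 1 model of all 24 libraries with each knockout set against its own WT, in which 35 members of 16674 genes were tested. The interaction was lower in ATRX_KO for 5 members, where 1.92% of all genes were, and higher for 0 (1.08%), the latter being 5 at an unadjusted p under 0.05 and 2 with DESeq2 (CCNG1 and NINJ1). The 5 were GDF15 (−1.04, SE 0.15, adjusted p = 0.000208), CYFIP2 (−0.82, SE 0.14, adjusted p = 0.00145), TRIAP1 (−0.82, SE 0.17, adjusted p = 0.00623), AEN (−0.77, SE 0.16, adjusted p = 0.00744) and ASCC3 (−0.64, SE 0.17, adjusted p = 0.0284). GDF15 and CYFIP2 thus had interactions below 0 in both knockouts, lower in ATRX_KO, whereas TRIAP1 and ASCC3 had no call in DAXX_KO and AEN had an interaction above 0 there. The basal effect was larger in ATRX_KO for GDF15 (0.69), CYFIP2 (1.39) and AEN (1.04) and smaller for TRIAP1 (−0.43). With etoposide CYFIP2 had a mean of 66.7 CPM in DAXX_KO against 172 in WT, and 109 in ATRX_KO against 193. GDF15 was not below WT with etoposide in either knockout. The call for ASCC3 was lost when any 1 of 8 libraries was left out (0.0521 to 0.0591). For NINJ1 the difference was 0.79 (SE 0.22, adjusted p = 0.0507) and for CCNG1 0.76 (SE 0.24, adjusted p = 0.081). With library totals alone, which raises the median of all genes by 0.13, the split was 4 lower and 2 higher. For ZMAT3, called in DAXX_KO alone, the difference was 0.29 (95% interval 0.033 to 0.55, adjusted p = 0.229).

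The basal effect of ATRX_KO exceeded that of DAXX_KO for 10 members and was below it for 5 (17.2% and 17.0% of all genes), a split of 8 and 7 with library totals alone, which moves the median of all genes by −0.12. CYFIP2 (1.39, adjusted p = 1.69e-10), EDA2R (1.10, adjusted p = 1.77e-06), AEN (1.04, adjusted p = 1.04e-07) and FBXO22 (0.96, adjusted p = 1.24e-05) were among the former, and NINJ1 (−1.42, adjusted p = 1.27e-07) had the largest difference the other way. The induction in WT differed between the series for 6 members, 5 larger in the ATRX series and 1 smaller (1.73% and 1.42% of all genes). PRDM1 (0.94, adjusted p = 0.00194), PLK2 (0.75, adjusted p = 0.000555) and EDA2R (0.71, adjusted p = 0.00308) were larger there and NINJ1 (−1.07, adjusted p = 0.000498) smaller. RRM2B (0.56, adjusted p = 0.0436) and ASCC3 (0.44, adjusted p = 0.0388) were also larger, calls lost when any 1 of 17 and 16 libraries was left out. ASCC3 is also among the members whose interaction differed between knockouts. Its log2 induction was 0.46 and 0.91 in WT of the DAXX and ATRX series, 0.35 in DAXX_KO and 0.13 in ATRX_KO. Each series has its own WT libraries, so such differences between the WT sets enter the comparison between knockouts for these genes.

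Another 13 genes of the p53 pathway were tested beside the members: the regulators MDM2, MDM4 and PPM1D, the cell cycle inhibitors CDKN1A and GADD45A, and the apoptosis and repair targets BAX, BBC3, PMAIP1, FAS, TNFRSF10B, XPC, DDB2 and POLH. In WT 12 of them rose and 1, MDM4, fell in both series. Of all genes 29.6% rose and 30.6% fell in WT of the DAXX series, and 31.7% and 29.8% in WT of the ATRX series. The interaction was below 0 for 7 and above for 1, MDM4, in DAXX_KO (5.79% and 8.38% of all genes). In ATRX_KO it was below 0 for 10 (7.64% of all genes). Its medians were −0.48 and −0.76, beside −0.72 and −0.98 for the members. MDM2 itself, the ubiquitin ligase of p53, gave interactions of −0.66 (adjusted p = 0.000462) and −1.03 (adjusted p = 1.92e-05). With etoposide 9 of the 13 were lower than WT in DAXX_KO and 11 in ATRX_KO (25.2% and 22.9% of all genes).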

How the data were processed

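The authors sequenced 3′-end (QuantSeq) mRNA libraries as 75-base single-end reads, aligned them with STAR to hg19 and counted genes of the GRCh37 Ensembl annotation with RSEM. The deposited table holds estimated counts per gene, as whole numbers, for 24 libraries. 3′ counts do not scale with transcript length, and levels are not compared between genes. Libraries were grouped by their titles. Ensembl identifiers were matched to symbols, and CPM was computed with TMM-scaled library sizes (edgeR 4.0.16, R 4.3.3).

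After a filter on low counts (filterByExpr, minimum count 10, minimum total 15), edgeR's quasi-likelihood test was fitted over the 4 groups of each series together, and over all 8 groups for differences between knockouts, with Benjamini-Hochberg adjustment over all genes at 0.05. Intervals are 95% intervals of the fit. The procedure was tested on simulated data. Alternatives were RLE size factors, library totals alone, no filter, at least 10 counts in every library, only the compared groups, a single model of the 24 libraries, a block for replicate number, DESeq2 1.42.0, and leaving out each library. The replicate numbers did not pair the libraries: correlations of same-numbered deviations ranged from −0.0857 to 0.0487 (DAXX series) and from −0.216 to 0.0409 (ATRX series), over 18 pairs each.

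The members, the gene lists and their order were chosen with earlier results of these data known. Genes named with full values were the 8 with interactions below 0 in both knockouts and the smallest adjusted p (the larger of both), those with an interaction above 0, those whose interaction differed between knockouts, those with RT-qPCR primers in the study, the 3 with the smallest induction in WT, and those with basal calls in opposite directions or at least 2-fold in both knockouts. PLK3, CCNG1, TIGAR, RRM2B and DRAM1 are given by test alone, ACER2 and SPATA18 mainly by counts, and the other members by mean and test. Promoters came from a set of RefSeq start sites (GRCh38.p14), and ASCC3, CMBL, FBXO22, PHLDA3, RRM2B and TP53INP1 had no entry in the set used.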

Additional observations from a re-analysis of the deposited data

Results flagged for a closer look

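Each value here is a log2 difference between the ATRX and the DAXX series that passed an adjusted p of 0.05 in edgeR's model of all 24 libraries. The interaction was lower in ATRX_KO than in DAXX_KO for GDF15 (−1.04), CYFIP2 (−0.82), TRIAP1 (−0.82), AEN (−0.77) and ASCC3 (−0.64). GDF15 and CYFIP2 had interactions below 0 in both knockouts, and that of AEN was above 0 in DAXX_KO.

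The effect of the knockout without treatment was larger in ATRX_KO for CYFIP2 (1.39), EDA2R (1.10), AEN (1.04), FBXO22 (0.96), DRAM1 (0.89), GDF15 (0.69), TP53I3 (0.59), SERTAD1 (0.52), TRAF4 (0.46) and SESN2 (0.45). It was smaller or more negative in ATRX_KO for NINJ1 (−1.42), CMBL (−0.77), PRDM1 (−0.68), TRIAP1 (−0.43) and RRM2B (−0.41). The value for RRM2B was no longer called when any 1 of 19 libraries was left out (adjusted p 0.0518 to 0.144). Leaving out 1 library could also end the call for TP53I3 (2 libraries, 0.0617 to 0.0704), CMBL (1 library, 0.0723) and TRAF4 (1 library, 0.0745).

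The induction in WT, measured in each series on its own WT libraries, was larger in the ATRX series for PRDM1 (0.94), PLK2 (0.75), EDA2R (0.71), RRM2B (0.56) and ASCC3 (0.44) and smaller for NINJ1 (−1.07). The values for RRM2B and ASCC3 were lost when any 1 of 17 and 16 libraries was left out (0.0516 to 0.127 and 0.0528 to 0.145).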

How the results depend on the processing

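Of the member values under alternatives other than leaving out a library, 2614 kept their direction and side of the threshold, 35 lost a call, 25 gained one and 12, none of them called, changed sign. The limits lie in 1 clone per knockout and in members near the floor (BTG2, ACER2). With library totals alone the medians over members in DAXX_KO were 0.28 without treatment, 1.38 for induction, −0.42 for the level under etoposide and −0.83 for the interaction, and in ATRX_KO 0.33, 1.52 and −0.49 for the first 3, and the medians of the difference between knockouts were 0.034 (interaction) and −0.039 (basal). This scaling moved the median of all genes by −0.12 to 0.18 in the 5 comparisons where it moved it by over 0.1, and relative to that median the members' differences between knockouts were −0.11 (interaction) and 0.076 (basal). With at least 10 counts in every library the WT medians were 2.25 and 2.52 and that of ATRX_KO induction 1.498. Members that fell in ATRX_KO were 1 in place of 2 with only the compared groups. Members with a higher interaction in ATRX_KO than in DAXX_KO were 0 in the main test, 2 with library totals alone, no filter or DESeq2, and 1 with at least 10 counts in every library or the replicate block. Under the replicate block, the WT induction was larger in the ATRX series for 3 members in place of 5, and members with an interaction below 0 numbered 20 in DAXX_KO and 24 in ATRX_KO, where PGF was lost (0.0528). The cause of the changes other than those with library totals was not tested.

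Leaving out 1 library moved the medians over members to 0.093 to 0.15 (basal), 2.17 to 2.25 (WT), 1.44 to 1.51 (DAXX_KO), −0.50 to −0.46 (etoposide level) and −0.74 to −0.70 (interaction) in the DAXX series, with 20 to 24 interactions below 0. In the ATRX series they were 0.25 to 0.36, 2.40 to 2.52, 1.40 to 1.51, −0.61 to −0.55 and −1.02 to −0.89, with 22 to 24 interactions below 0 and 1 to 2 falls in ATRX_KO. Between knockouts, 0 to 2 interactions were higher (median −0.19 to −0.045) and 3 to 5 basal effects lower (median 0.034 to 0.15), and 3 to 5 WT inductions were larger (median 0.089 to 0.19). Sign changes of uncalled values were PGF in DAXX_KO induction (0.0031 with RLE, 0.0050 with DESeq2), the SESN1 level in DAXX_KO (−0.0045 with RLE or DESeq2, −0.0029 with at least 10 counts), TNFAIP8 basal (0.084) and the ASCC3 level (0.042) in DAXX_KO and the AEN level in ATRX_KO (0.053) with library totals alone, and the CCNG1 interaction in ATRX_KO (0.0042 with RLE, 0.021 with totals, 0.0052 with DESeq2, 0.015 in one model). Without 1 library the uncalled values that spanned 0 were, in the DAXX series, BTG2 basal −0.048 to 0.69, PGF induction in the knockout −0.18 to 0.16, TNFAIP8 basal −0.18 to 0.011 and ASCC3 level −0.081 to 0.025. In the ATRX series they were PGF basal −0.11 to 0.19, PGF induction in the knockout −0.080 to 0.20, CCNG1 interaction −0.13 to 0.12, NINJ1 interaction −0.080 to 0.22, BTG2 basal −0.096 to 0.64, AEN level −0.084 to 0.010 and ZMAT3 level −0.016 to 0.049.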

Other observations

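Paralogs of members that are not on the list gave these values. BTG1, a relative of BTG2, rose in WT by 1.33 and 0.89 on the log2 scale, with interactions of 0.094 (adjusted p = 0.515) for DAXX_KO and 0.36 (adjusted p = 0.0295) for ATRX_KO. SESN3, the third sestrin, was higher with etoposide in WT by 2.32 and 1.97, with interactions of −0.62 (adjusted p = 0.593) and 0.11 (adjusted p = 0.923). These SESN3 values are a description only, because the gene was scarce without treatment. In the DAXX series it had 2 to 7 counts per untreated WT library and 8 to 12 per untreated DAXX_KO library. There it could enter the test only through libraries with etoposide. Untreated libraries of the ATRX series had 4 to 16 counts in WT and 6 to 10 in ATRX_KO. TP53INP2 rose by 1.89 and 2.24, with interactions of −0.91 (adjusted p = 0.0379) and −0.048 (adjusted p = 0.88). CCNG2, cyclin G2, rose by 1.17 and 1.62, with interactions of 0.57 (adjusted p = 0.515) and 0.019 (adjusted p = 0.994).

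PHLDA2, a paralog of PHLDA3 that is best known as an imprinted gene, had values of the opposite sign. Its mean level was 234 CPM in WT control and 195 with etoposide, and 172 and 459.7 in DAXX_KO. In the ATRX series it was 349 and 275 in WT and 171 and 248 for ATRX_KO. Its interaction was 1.69 (adjusted p = 5.15e-08) for DAXX_KO and 0.88 (adjusted p = 0.000267) for ATRX_KO, where that of PHLDA3 was below 0 in both. PLK1, the mitotic relative of PLK2 and PLK3, fell with etoposide in WT by 4.77 and 4.21, with interactions of 0.70 (adjusted p = 0.00221) and −0.19 (adjusted p = 0.372).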
